A study of Mus musculus with 9 samples.

Results

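Transcript levels of 7 adhesion genes, Spn, Selplg, Cd44, Icam1, Icam2, Vcam1 and Alcam, were examined in splenic B cells sorted from young and aged mice. They were found by gene symbol, and all 7 were among the 24346 genes with a value in each of the 9 RNA-seq libraries. FO B (Young) were follicular B cells of C57BL6 mice aged 8 weeks, FO B (Aged) were follicular B cells of C57BL6 mice aged 50 weeks, and ABCs (Aged) were age-associated B cells of C57BL6 mice aged 50 weeks, with 3 libraries in each group and no agent or mutant allele named for any of them. ABCs accumulate with age and are marked by loss of CD21 and CD23 and gain of CD11b and CD11c, so the comparison with FO B cells of the same age asks how they differ, and the comparison between the FO B groups asks what age alone goes with. Each group is described as having as many mice as libraries, but the labels tie no library to a mouse and do not say whether aged FO B cells and ABCs were sorted from the same mice. The 7 genes were listed with earlier results of the same libraries known, and which measured values they were chosen by is not recorded. For this reason the differences of these 7 genes between ABCs and FO B cells are given as a description, with no p-value for any single one of them.

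Leukocytes leave the blood and settle in tissue by a series of contacts. Selectins catch sugar-bearing mucin-like proteins on passing cells, integrins then bind members of the immunoglobulin superfamily such as the ICAMs and VCAM-1, and CD44 holds cells to hyaluronan in the matrix. On B cells the same molecules serve contact with T cells, dendritic cells and stroma, and long stiff mucins such as CD43 can also keep membranes apart.

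In both sorts cells were B220hi, CD21lo and CD43-, the FO B cells CD23+ and the ABCs CD23- with CD11b and CD11c. CD43 is the product of Spn, so that surface protein was a negative gate in every group, and it was not measured in the files used here. The B cell markers Ms4a1, Cd79a, Cd79b, Pax5 and Cd22 summed to 7744 to 7754 FPKM in young FO B cells, 7393 to 7764 FPKM in aged FO B cells and 6312 to 8145 FPKM in the ABC libraries, with all 5 genes expressed in each group. FPKM scales the fragments on a gene by the length of its transcript and by the fragments mapped in the library, so levels of different genes can be set side by side. A library held approximately 7280000 to 8860000 mapped reads, as estimated from the smallest steps in the FPKM values. This estimate, and the approximate reads per gene below, assume no further scaling between libraries, which the sources used here do not state. ABC replicate 3 stood apart from the other ABC libraries, with Cd24a at 28.6 FPKM against at least 95.5 FPKM in replicates 1 and 2. Ratios of mean levels that include it are therefore followed by their value without it.

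The 7 genes lie on 7 chromosomes of GRCm38, the assembly that mm10 names, and all are annotated as protein-coding in GENCODE M21. Spn spans 127132232 to 127137823 of chromosome 7, Selplg 113818536 to 113832644 of chromosome 5, and Cd44 102811141 to 102901665 of chromosome 2, all on the minus strand. Icam1 spans 21015985 to 21028817 of chromosome 9 on the plus strand. Icam2 spans 106377656 to 106388075 of chromosome 11, Vcam1 116109949 to 116129688 of chromosome 3 and Alcam 52248996 to 52454074 of chromosome 16, all on the minus strand. Cd44 has the most exons of the 7 in a single transcript, 19, and its isoforms cannot be told apart in a value per gene. Icam1 and Vcam1 overlap the antisense genes Gm47079 and Gm43109, and Cd44 overlaps a small nuclear RNA gene, Gm23731. Since strand-specific counting is not stated, reads of an antisense gene cannot be separated from those of its partner.

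RefSeq promoter windows on GRCm38.p6 were at hand for 4 of the 7 genes, Spn, Cd44, Icam1 and Alcam. The 250 bases before the transcript start are shown for Spn, Cd44 and Icam1, which differed most between ABCs and FO B (Aged) among these 4, as the sequence in front of each gene read from 5′ to 3′ on its own strand. Capitals mark GGGTGG, letters at which the factor Sp1 is known to bind the human CD43 promoter, and the GC box GGGCGG, on either strand. The windows are chr7:127137824-127138073 (minus strand) for Spn, chr2:102901666-102901915 (minus strand) for Cd44 and chr9:21015690-21015939 (plus strand) for Icam1.
Spn: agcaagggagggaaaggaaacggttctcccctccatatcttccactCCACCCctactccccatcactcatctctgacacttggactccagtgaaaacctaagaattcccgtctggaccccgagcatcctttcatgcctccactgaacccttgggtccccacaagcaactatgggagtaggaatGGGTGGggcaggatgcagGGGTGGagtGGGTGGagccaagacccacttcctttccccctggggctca
Cd44: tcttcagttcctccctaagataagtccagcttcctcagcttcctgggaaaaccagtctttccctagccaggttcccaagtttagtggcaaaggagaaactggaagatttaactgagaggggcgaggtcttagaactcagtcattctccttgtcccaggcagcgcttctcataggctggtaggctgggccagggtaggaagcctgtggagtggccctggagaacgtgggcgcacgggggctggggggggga
Icam1: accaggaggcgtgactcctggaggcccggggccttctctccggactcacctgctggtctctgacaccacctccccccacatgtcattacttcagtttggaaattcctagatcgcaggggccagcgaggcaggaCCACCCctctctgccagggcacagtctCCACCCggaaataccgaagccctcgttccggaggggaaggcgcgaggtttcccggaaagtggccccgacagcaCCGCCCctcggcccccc
The Spn window held GGGTGG 4 times, of which 3 lay within the last 67 bases before the start on the gene's own strand. GGGTGG was chosen after the windows had been read, and 28.1% of the 32851 RefSeq windows of this length hold it on either strand, whereas 0.441% hold it at least as often as Spn. The Icam1 window held GGGTGG 2 times and 1 GC box, which 32.7% of all windows hold, and the Cd44 window held neither. The Alcam window, chr16:52453082-52453331 on the minus strand, held 2 GC boxes. The RefSeq start of Alcam lies inside the span that GENCODE gives, so this window is within the annotated gene there. None of these matches overlapped another. None of the 4 windows held a full match, with no mismatch allowed, to the NF-kappaB consensus (found in 7.25% of all windows), the AP-1 letters TGANTCA (6.75%), the T-box letters TCACACC (3.33%) or the TATA box TATAAA (12.4%) on either strand, and near matches were not counted. GC content was 56.8% for Spn, 56.4% for Cd44, 65.2% for Icam1 and 69.2% for Alcam, above the median of 52.4% over all windows. These matches describe letters and say nothing of binding in these cells.

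Spn, the gene of the sialomucin CD43, was low in FO B cells and abundant in ABCs. Its level was 4.96, 4.71 and 4.99 FPKM in FO B (Young) replicates 1, 2 and 3, 2.75, 3.09 and 3.32 FPKM in FO B (Aged), and 62.6, 54.1 and 86.7 FPKM in ABCs (Aged). All 3 ABC libraries were thus far above all 6 FO B libraries. ABCs had a mean of 67.8 ± 16.9 FPKM (SD, n = 3), 22.2 times the 3.05 ± 0.283 FPKM (SD, n = 3) of FO B (Aged), and 19.1 times without ABC replicate 3. Within a library, Spn ranked above 12% to 14.8% of the genes that reached 1 FPKM in FO B (Aged) and above 81.1% to 87.5% of them in ABCs. The level in FO B (Aged) rests on approximately 75 to 102 reads per library and that in ABCs on 1644 to 2404. On the log2(FPKM + 1) scale, which understates changes of low genes, the difference was 4.06 (SE 0.17), which put it at rank 35 of 10412 genes ordered from the most positive difference.

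Other cells that carry CD43 were looked for by their markers. The T cell list summed to 0.374 to 1.13 FPKM in FO B (Aged) and 5.20 to 38.5 FPKM in ABCs, with 8 of 8 genes detected in at least 1 ABC library, and most of it was Cd3g, since the other 7 genes summed to 0.277 to 1.88 FPKM in ABCs. Of the defining T cell genes, Cd3e was at 0 FPKM in ABC replicates 2 and 3 and at 0.0996 FPKM in replicate 1. The NK cell list summed to 0.642 to 1.01 FPKM in FO B (Aged) and 24.4 to 38 FPKM in ABCs, and without Prf1, the perforin gene, its other 5 genes summed to 0 to 0.797 FPKM in ABCs. The plasma cell list summed to 129 to 148 FPKM in FO B (Aged) and 191 to 225 FPKM in ABCs, most of it Xbp1 at 102 to 122 FPKM and 126 to 142 FPKM. Of its other genes, Jchain was at 2.73, 6.63 and 8.44 FPKM in aged FO B replicates 1, 2 and 3 and at 61.6, 40.5 and 12.5 FPKM in those of ABCs. Sdc1 was at 2.69 to 3.76 FPKM and 9.54, 8.37 and 29.5 FPKM, Prdm1 at 0.18 to 0.713 FPKM and 2.93 to 5.7 FPKM, Irf4 at 17.1 to 17.8 FPKM and 11.1 to 20.7 FPKM, and Tnfrsf17 at 0.411 FPKM and 0.611 FPKM in replicate 1 and at 0 FPKM in the others. Thus Xbp1, Jchain, Sdc1 and Prdm1 were higher in every ABC library than in any aged FO B library, whereas Irf4 and Tnfrsf17 overlapped. The same groups did not overlap, in either direction, for 52.6% of all genes tested, so such a separation was common. The B-1 cell list summed to 18.2 to 27.1 FPKM in FO B (Aged) and 137 to 157 FPKM in ABCs. Of its genes Zbtb32 and Bhlhe41 made up most of the sum in ABCs, Cd5 was between 0.656 and 2.86 FPKM there, and Il5ra was at 0.578 to 3.4 FPKM against 15.8 to 23.7 FPKM in FO B (Aged). The part of plasma cells and B-1 cells in the level of Spn was not tested. In sorted bulk RNA, more cells of a type and more RNA per cell cannot be told apart.

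Selplg encodes PSGL-1, the main ligand of P-selectin, and was expressed in all 3 groups. It was at 47.6, 44.2 and 42.3 FPKM in FO B (Young), 48.4, 44.7 and 46.5 FPKM in FO B (Aged), and 79.7, 78.9 and 88.9 FPKM in ABCs. The FO B groups overlapped with each other and lay below every ABC library. The mean in ABCs, 82.5 ± 5.56 FPKM (SD, n = 3), was 1.77 times that in FO B (Aged), 46.5 ± 1.85 FPKM (SD, n = 3), and 1.71 times without ABC replicate 3, with a log2 difference of 0.81 (SE 0.074). Because Spn differed far more than Selplg, the balance of the mucin pair changed. Spn over Selplg in FPKM was 0.104 to 0.118 in young FO B cells, 0.0569 to 0.0712 in aged FO B cells and 0.685 to 0.975 in ABCs, with no overlap between any of the groups. Between the FO B groups an exact two-sided permutation test of this ratio gave p = 0.1, the smallest that 3 libraries against 3 allow.

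Cd44, the gene of the hyaluronan receptor, was at 17.3, 14.7 and 17.1 FPKM in FO B (Young), 16.1, 19.5 and 16.6 FPKM in FO B (Aged), and 66.2, 74.6 and 94.8 FPKM in ABCs. The FO B groups overlapped, and every ABC library was above all of them. The mean of 78.5 ± 14.7 FPKM (SD, n = 3) in ABCs was 4.52 times the 17.4 ± 1.85 FPKM (SD, n = 3) in FO B (Aged), and 4.05 times without ABC replicate 3. The log2 difference was 2.1 (SE 0.14), at rank 217 of 10412 genes in that order. High CD44 is widely used to mark antigen-experienced lymphocytes. Cd44 over Selplg in FPKM was 0.332 to 0.404 in young FO B cells, 0.332 to 0.436 in aged FO B cells, and 0.831, 0.945 and 1.07 in ABC replicates 1, 2 and 3. The FO B groups overlapped in this ratio (exact two-sided permutation p = 0.9), and all 3 ABC libraries were above them.

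**Figure D1:**
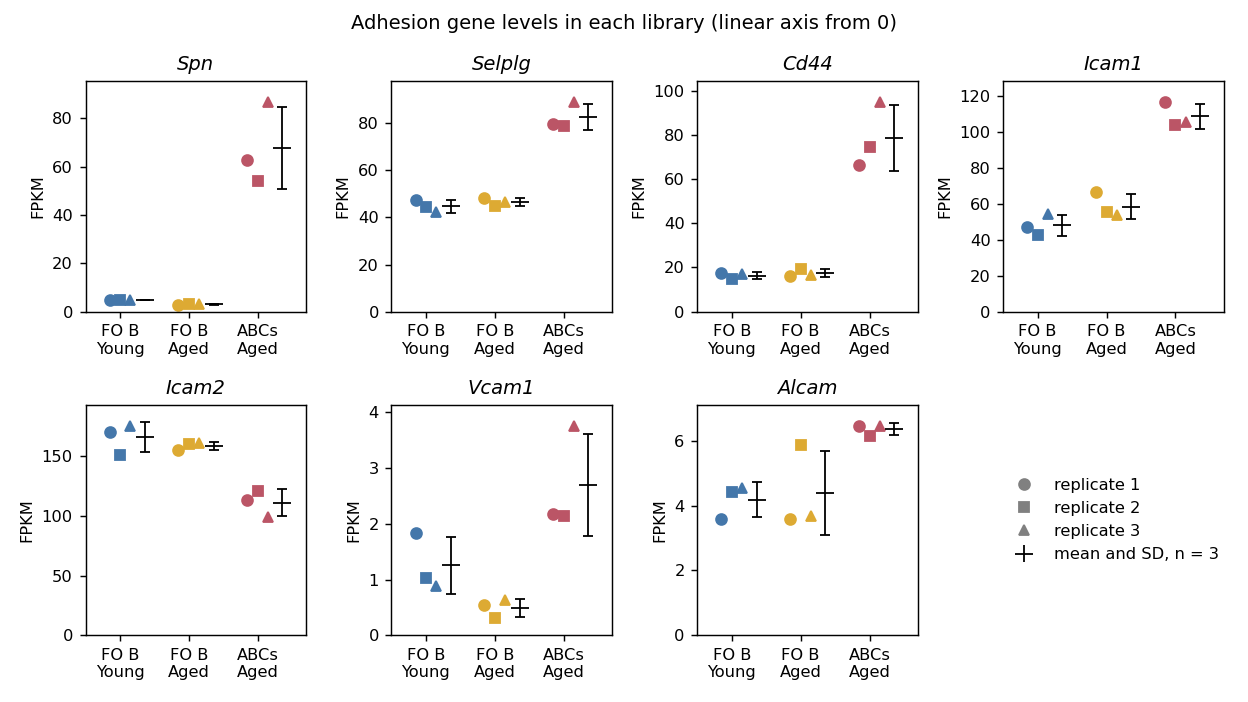
Level of each of the 7 genes in FPKM (vertical axis, linear from 0) in the 3 libraries of each group (horizontal axis, marker shape by replicate), with the mean and SD in black. Spn, Selplg, Cd44, Icam1, Vcam1 and Alcam were higher and Icam2 lower in all 3 ABC libraries than in any FO B library.

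The pair of ICAM genes, which encode ligands of the integrin LFA-1, differed in opposite directions. Icam1, the inducible member, was at 47.3, 42.4 and 54.2 FPKM in FO B (Young), 66.4, 55.4 and 53.5 FPKM in FO B (Aged), and 117, 104 and 105 FPKM in ABCs. Icam2, the constitutive member, was at 170.3, 151 and 175 FPKM in FO B (Young), 155, 160.2 and 161 FPKM in FO B (Aged), and 113, 121 and 98.8 FPKM in ABCs. Neither gene overlapped between ABCs and any FO B library. The mean of Icam1 was 108 ± 6.94 FPKM (SD, n = 3) in ABCs, 1.86 times the 58.4 ± 6.97 FPKM (SD, n = 3) in FO B (Aged), and 1.89 times without ABC replicate 3. The mean of Icam2 was 159 ± 3.29 FPKM (SD, n = 3) in FO B (Aged), 1.43 times the 111 ± 11.3 FPKM (SD, n = 3) in ABCs, and 1.35 times without ABC replicate 3. The log2 differences were 0.89 (SE 0.098) for Icam1 and -0.52 (SE 0.084) for Icam2. Scaling the libraries to their upper quartile moved the median of all genes up by 0.16 and brought Icam2 to -0.34, or -0.49 relative to that median. Endothelial cells also express Icam2, and their list summed to 67.7 to 77.1 FPKM in FO B (Aged) and 39.4 to 55.0 FPKM in ABCs. Nearly all of this was Pecam1, which B cells express too, and the other 5 genes summed to at most 0.151 FPKM in FO B (Aged) and 0.658 FPKM in ABCs, with Tek and Tie1 at 0 FPKM in the 3 FO B (Aged) libraries.

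As a result the ratio of the ICAM transcripts, which needs no scaling between libraries, separated ABCs from FO B cells. Icam1 over Icam2 in FPKM was 0.278, 0.280 and 0.309 in FO B (Young), 0.429, 0.346 and 0.332 in FO B (Aged), and 1.03, 0.859 and 1.06 in ABCs. The 3 groups did not overlap, with FO B (Aged) between the other groups but much nearer to FO B (Young). Between the FO B groups an exact two-sided permutation test of this ratio gave p = 0.1, the smallest that 3 libraries against 3 allow, so no difference with age was called.

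**Figure D2:**
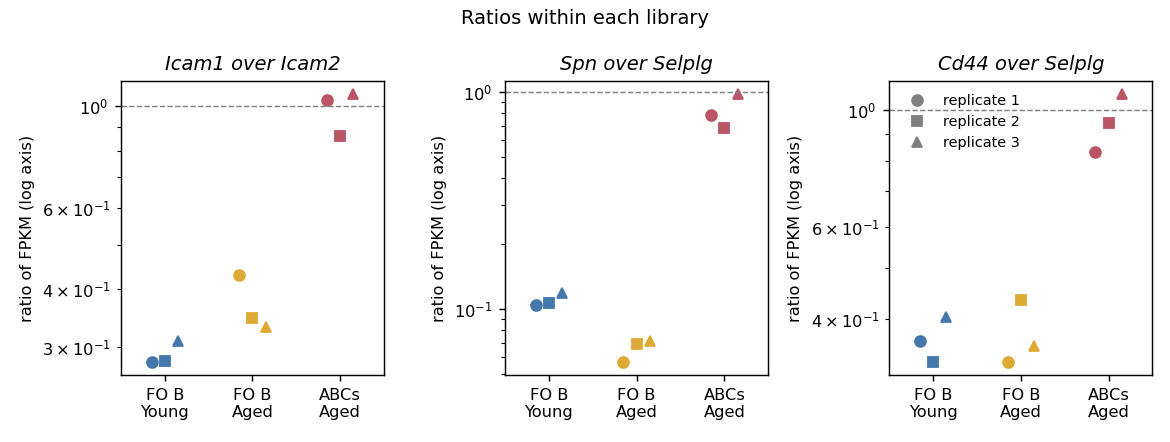
Ratios of FPKM within each library (vertical log axis, 1 marked by the dashed line) for Icam1 over Icam2, Spn over Selplg and Cd44 over Selplg in the 3 libraries of each group (horizontal axis). ABC libraries lay above all FO B libraries in each panel, with Icam1 over Icam2 from 0.859 to 1.06, and Cd44 over Selplg from 0.831 to 1.07.

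Vcam1 and Alcam, the other immunoglobulin superfamily members, were low in B cells. Vcam1, which encodes the ligand of integrin alpha4 beta1 that holds lymphocytes on stroma and endothelium, was at 1.83, 1.03 and 0.887 FPKM in FO B (Young), 0.540, 0.317 and 0.634 FPKM in FO B (Aged), and 2.18, 2.14 and 3.75 FPKM in ABCs. The groups did not overlap, but values this low rest on approximately 29 to 60, 11 to 21 and 65 to 114 reads per library. The mean in ABCs, 2.69 ± 0.92 FPKM (SD, n = 3), was 5.42 times that in FO B (Aged), 0.497 ± 0.163 FPKM (SD, n = 3), and 4.35 times without ABC replicate 3. The log2 difference was 1.28 (SE 0.21).

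Macrophages and stromal cells of the spleen are rich in Vcam1. The macrophage and monocyte list summed to 16.1 to 20.8 FPKM in FO B (Aged) and 203 to 245 FPKM in ABCs, most of it from Adgre1, and without that gene the other 11 summed to 13.3 to 18.1 FPKM and 23.2 to 32.2 FPKM. Among them Spic was at 5.02 to 7.97 FPKM in FO B (Aged) and 6.37 to 11.5 FPKM in ABCs, Cd5l at 0.431 to 0.942 FPKM and 0.302 to 0.334 FPKM, and Mertk at 0 FPKM in FO B (Aged) and at most 0.198 FPKM in ABCs. Hmox1 was at 1.11 to 1.57 FPKM in aged FO B cells and higher, at 6.79 to 9.47 FPKM, in ABCs, and C1qc was at 0.361 to 1.07 FPKM and 0.393 to 4.03 FPKM. The stromal cell list summed to at most 0.226 FPKM in any library, with Cxcl13 at 0 FPKM throughout. The dendritic cell list summed to 1.93 to 4.2 FPKM in FO B (Aged) and 7.81 to 13.5 FPKM in ABCs. Of its genes Batf3 was at 0 FPKM in all aged FO B libraries and at 1.99 to 9.46 FPKM in ABCs, Zbtb46 at 0.437 to 1.46 FPKM and 2.9 to 3.34 FPKM, Siglech at 0 to 0.36 FPKM and 0.664 to 1.56 FPKM, and Flt3 at 1.11 to 2.85 FPKM and 0.105 to 1.17 FPKM. The 5 of 6 neutrophil genes that are in the files summed to 0 to 8.09 FPKM in young FO B cells, 1.09 to 21.4 FPKM in aged FO B cells and 0.128 to 0.645 FPKM in ABCs, with S100a8 at 15.2 FPKM in FO B (Aged) replicate 3. The part of macrophages and dendritic cells in the level of Vcam1 was not tested.

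Alcam encodes CD166, the partner of CD6 on T cells. It was at 3.57, 4.43 and 4.55 FPKM in FO B (Young), 3.59, 5.87 and 3.67 FPKM in FO B (Aged), and 6.46, 6.15 and 6.46 FPKM in ABCs. FO B (Aged) replicate 2 came close to the ABC libraries, which differed little among themselves (coefficient of variation 2.84%). ABCs had a mean of 6.36 ± 0.18 FPKM (SD, n = 3), 1.45 times the 4.38 ± 1.29 FPKM (SD, n = 3) of FO B (Aged), and 1.44 times without ABC replicate 3, with a log2 difference of 0.48 (SE 0.17).

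Set against FO B (Young) in place of FO B (Aged), the same ABC libraries gave similar sizes for most of the 7 genes. Mean levels were 13.9 times as high in ABCs as in FO B (Young) for Spn, 1.85 times for Selplg, 4.80 times for Cd44, 2.26 times for Icam1, 2.15 times for Vcam1 and 1.52 times for Alcam. Icam2 was 1.49 times as high in FO B (Young) as in ABCs. Without ABC replicate 3 these values were 12.0 for Spn, 1.78 for Selplg, 4.3 for Cd44, 2.30 for Icam1, 1.73 for Vcam1, 1.51 for Alcam and 1.41 for Icam2. Both comparisons share the 3 ABC libraries, so that they are not independent. Spn and Vcam1 differed more from FO B (Aged) than from FO B (Young), having been lower in the aged FO B libraries.

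In the limma fit over all genes, 5 of the 7 were among those higher in ABCs than in FO B (Aged) at an FDR under 0.05, as were 19.4% of the 10412 genes tested, and 1 was among those lower, as were 16.5%. Against FO B (Young), 6 were among the higher genes (21.6% of 10438 tested) and 1 among the lower (19.1%), and the count of higher members was 5 when any 1 ABC library or FO B (Young) replicate 2 or 3 was omitted. The genes were listed with these differences known, and Vcam1 passed the filter with FO B (Aged) only through its ABC libraries. Nothing is therefore read from these counts. None of the 7 overlapped between ABCs and either FO B group, while the same was true of 52.6% of all genes tested with FO B (Aged) and 55.3% with FO B (Young).

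**Figure D3:**
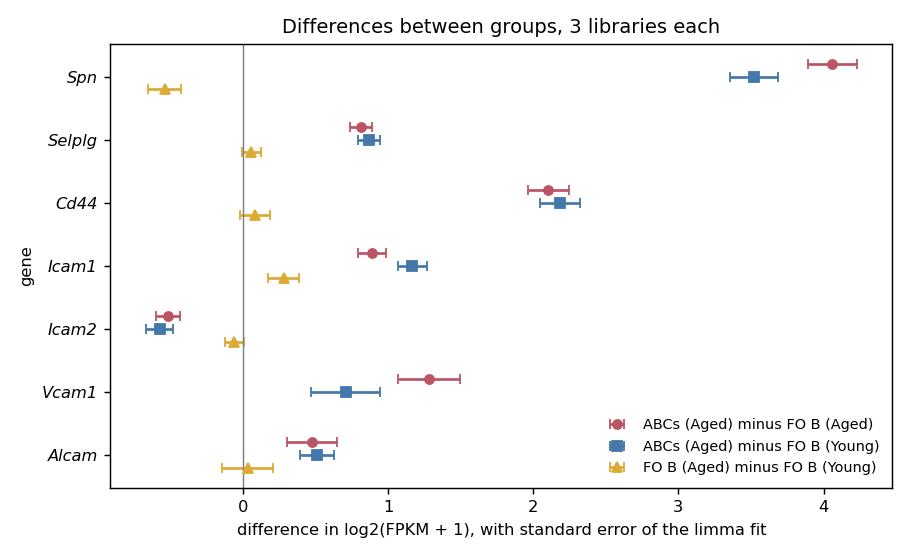
Differences in log2(FPKM + 1) between groups (horizontal axis) for each gene (vertical axis), with the standard error of the limma fit and 3 libraries in each group. ABCs differed from FO B (Aged) by 4.06 for Spn and -0.52 for Icam2, and differences between the FO B groups lay between -0.54 and 0.28, with Vcam1 too low to be fitted there.

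The order of the genes by level changed between the groups. In FO B (Young) it ran from Icam2 through Icam1, Selplg, Cd44, Spn and Alcam to Vcam1, with overlap between Icam1 and Selplg, where Icam1 was above in 1 of 3 libraries. In FO B (Aged) Alcam stood above Spn in all 3 libraries, and no neighbours overlapped. In ABCs Icam2 and Icam1 overlapped at the top, with Icam2 above in 1 of 3 libraries, and Selplg, Cd44 and Spn followed as a group in which each overlapped with the next, well above Alcam and Vcam1. The 7 genes summed to 262.6 to 299.3 FPKM in young FO B cells, 285.1 to 292.6 FPKM in aged FO B cells and 440.9 to 484.6 FPKM in ABCs. Icam2 made up 52.9% to 56.4% of this sum in aged FO B cells and 20.4% to 27.5% in ABCs, while Spn made up 0.941% to 1.16% and 12.3% to 17.9% and Cd44 5.49% to 6.75% and 14.8% to 19.6%. FO B cells thus carried mostly Icam2 transcripts of the 7, whereas in ABCs 5 genes shared the sum, each with at least 12.3% in every library.

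Between FO B (Aged) and FO B (Young), no call was made on any of the 7 genes. Of the 6 genes high enough for the limma fit, 0 were called higher and 0 lower at an FDR under 0.05, against 0.346% and 0.119% of the 10122 genes tested, and 2 of the 6 (Spn and Icam1) and 1298 of all genes had an unadjusted p under 0.05. Spn was lower in all 3 aged libraries than in any young one, with a mean of 4.89 ± 0.152 FPKM (SD, n = 3) in FO B (Young) that was 1.60 times that in FO B (Aged). The FO B groups did not overlap for 18.6% of the 10122 genes tested, so the lack of overlap of Spn was not rare. The log2 difference of Spn was -0.54 (SE 0.11, limma with Benjamini-Hochberg adjustment, FDR = 0.109), and an exact two-sided permutation test of the means gave p = 0.1, the smallest that 3 libraries against 3 allow. Icam1 was 1.22 times as high in FO B (Aged), with a log2 difference of 0.28 (SE 0.11, limma FDR = 0.331, exact permutation p = 0.2) and overlapping libraries.

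The remaining differences with age were smaller than the spread or rested on few reads. The log2 differences were 0.058 (SE 0.066, limma FDR = 0.779) for Selplg, 0.082 (SE 0.10, limma FDR = 0.798) for Cd44, -0.059 (SE 0.065, limma FDR = 0.769) for Icam2 and 0.032 (SE 0.18, limma FDR = 0.964) for Alcam, and the libraries of both groups overlapped for each. Exact permutation tests gave p = 0.4 for Selplg, 0.6 for Cd44, 0.4 for Icam2 and 0.8 for Alcam. Vcam1 had a mean below 1 FPKM in these 6 libraries and was left out of the fit. It was 2.52 times as high in FO B (Young), at 1.25 ± 0.51 FPKM (SD, n = 3), without overlap (exact permutation p = 0.1), beside 18.6% of the genes tested that also did not overlap. With no filter on low values its log2 difference was -0.57 (SE 0.18, limma FDR = 0.389).

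Genes that work with the 7 were taken in 7 lists of 112 genes and tested in the limma fits between ABCs and FO B (Aged), where the median log2 difference of all genes tested was -0.011. Of all 10412 genes tested there, 19.4% rose and 16.5% fell at an FDR under 0.05, which is the background for the counts of each list. The lists were made with earlier results of these libraries known, and most genes were named for large differences in this same fit. Their FDR values therefore tell which genes were called and are no independent evidence. Among 11 selectins and other sialomucins, 3 were tested, 1 rose and 1 fell. Cd24a, a mucin-like P-selectin ligand, fell from 364 ± 27.5 to 75 ± 40.2 FPKM (SD, n = 3 each), with a log2 difference of -2.46 (limma FDR = 0.0049), and Cd164, the endolyn gene, rose by 0.47 (limma FDR = 0.00389). Sele and Selp, the endothelial selectins, had group means of at most 0.413 FPKM.

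Of the 21 enzymes that build the glycans and sulfated tyrosines of selectin ligands such as PSGL-1, 14 were tested, 4 rose, 3 fell and the median was -0.003. St3gal6, a sialyltransferase of selectin ligands, rose from 38.3 ± 5.23 to 74.2 ± 8.66 FPKM (SD, n = 3 each), by 0.94 (limma FDR = 0.00129). C1galt1, which extends the O-glycan core of mucins, fell by 1.40 (limma FDR = 0.0123, rising to 0.0504 when FO B (Aged) replicate 1 was left out), Tpst1, a tyrosine sulfotransferase, by 0.82 (limma FDR = 0.000317) and Slc35c1, the GDP-fucose carrier, by 0.70 (limma FDR = 0.00098). Tpst2, the other tyrosine sulfotransferase of the list, rose from 56.9 ± 7.09 to 91.5 ± 17.3 FPKM (SD, n = 3 each), by 0.67 (limma FDR = 0.0129). Gcnt1, which branches O-glycans of CD43 and PSGL-1, differed by 0.37 (limma FDR = 0.0753), and Fut7, the fucosyltransferase of selectin ligands, was listed at 0 FPKM throughout both groups of aged mice. C1galt1 was also the single gene of the 7 lists called between FO B (Aged) and FO B (Young), where it rose by 0.81 (limma FDR = 0.0403) from 14.1 ± 2.25 to 25.4 ± 2.59 FPKM (SD, n = 3 each). ABC replicates 1, 2 and 3 were at 13.5, 10.8 and 4.83 FPKM, and against FO B (Young) C1galt1 was not called (-0.58, limma FDR = 0.189).

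Of 14 linkers between membrane proteins such as CD43, CD44 or the ICAMs and actin, 12 were tested, 1 rose, 3 fell and the median was 0.009. Slc9a3r1, an ERM-binding scaffold, rose by 0.56 (limma FDR = 0.00162). Stk10 and Slk, kinases that phosphorylate ERM proteins, fell by 0.76 (limma FDR = 0.00263) and 1.07 (limma FDR = 0.0134, above 0.05 and up to 0.0559 when FO B (Aged) replicate 1 or 2 was left out), and Was, an actin nucleation factor, fell by 0.63 (limma FDR = 0.00121).

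Of 11 integrins and other counter-receptors of the 7, 8 were tested, 6 rose, 0 fell and the median was 1.98. Itgam and Itgax encode the sort markers CD11b and CD11c, so that their differences of 5.07 and 5.53 describe the gate. Both are among the 6 genes that rose and both raise the median, so neither figure describes the rest of the list. Itgb1, the beta chain of the VCAM-1 receptor, was at 13 ± 0.105 FPKM in FO B (Aged) and 363 ± 97.3 FPKM in ABCs (SD, n = 3 each), a log2 difference of 4.67 (SE 0.17, limma FDR = 9.66e-06). Its alpha4 chain gene Itga4 did not rise with it, at 18 ± 1.94 and 13.2 ± 2.51 FPKM (SD, n = 3 each). The log2 difference of Itga4 was -0.43 (limma FDR = 0.0591), and -0.53 against FO B (Young) (limma FDR = 0.019). Itgad, an alpha chain that also binds VCAM-1, differed by 2.29, and its call was lost without ABC replicate 1 or 2 or any FO B (Aged) replicate. Itgad, Itgam and Itgax passed the filter on the mean only through the ABC libraries. A call on them could thus hardly be other than higher, which also limits the count of genes that rose.

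Of 21 further immunoglobulin-fold adhesion genes, 7 were tested, 4 rose, 2 fell and the median was 0.50. Pvr, a nectin-like molecule, rose by 1.86 (limma FDR = 0.00116) and Cd2, which binds SLAM family partners, by 1.30 (limma FDR = 4.99e-05). Cadm1, a homophilic adhesion molecule, was higher by 2.49 from nearly 0, and L1cam was lower by 1.07. Cadm1 and L1cam passed the filter on the mean only through the group where they were high. The direction of any call on them was thus nearly fixed beforehand. Of 21 genes of hyaluronan turnover and CD44 partners, 6 were tested, 2 rose, 1 fell and the median was 0.24. Srgn, the serglycin core protein and a CD44 ligand, rose by 0.66 (limma FDR = 0.00118), Tmem2, a surface hyaluronidase, by 0.79 (limma FDR = 0.0142), and Lgals9, a CD44-binding galectin, fell by 0.82 (limma FDR = 0.00928, or 0.0639 with upper quartile scaling).

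Of 13 genes of sheddases, which clip CD44 and VCAM-1 from the surface, and their regulators, 7 were tested, 2 rose, 1 fell and the median was 0.30. Timp2, a metalloprotease inhibitor, was at 0.319 ± 0.153 FPKM in FO B (Aged) and 7.6 ± 3.18 FPKM in ABCs (SD, n = 3 each). Its log2 difference was 2.65. Timp2 passed the filter on the mean only through the ABC libraries, so a call on it could hardly be other than higher. Adam19, a metalloprotease, differed by 0.30 (limma FDR = 0.037) and Rhbdf2, a partner of ADAM17, by -1.05 (limma FDR = 0.04), and their FDR was as high as 0.118 and 0.123 with 1 library left out.

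**Figure D4:**
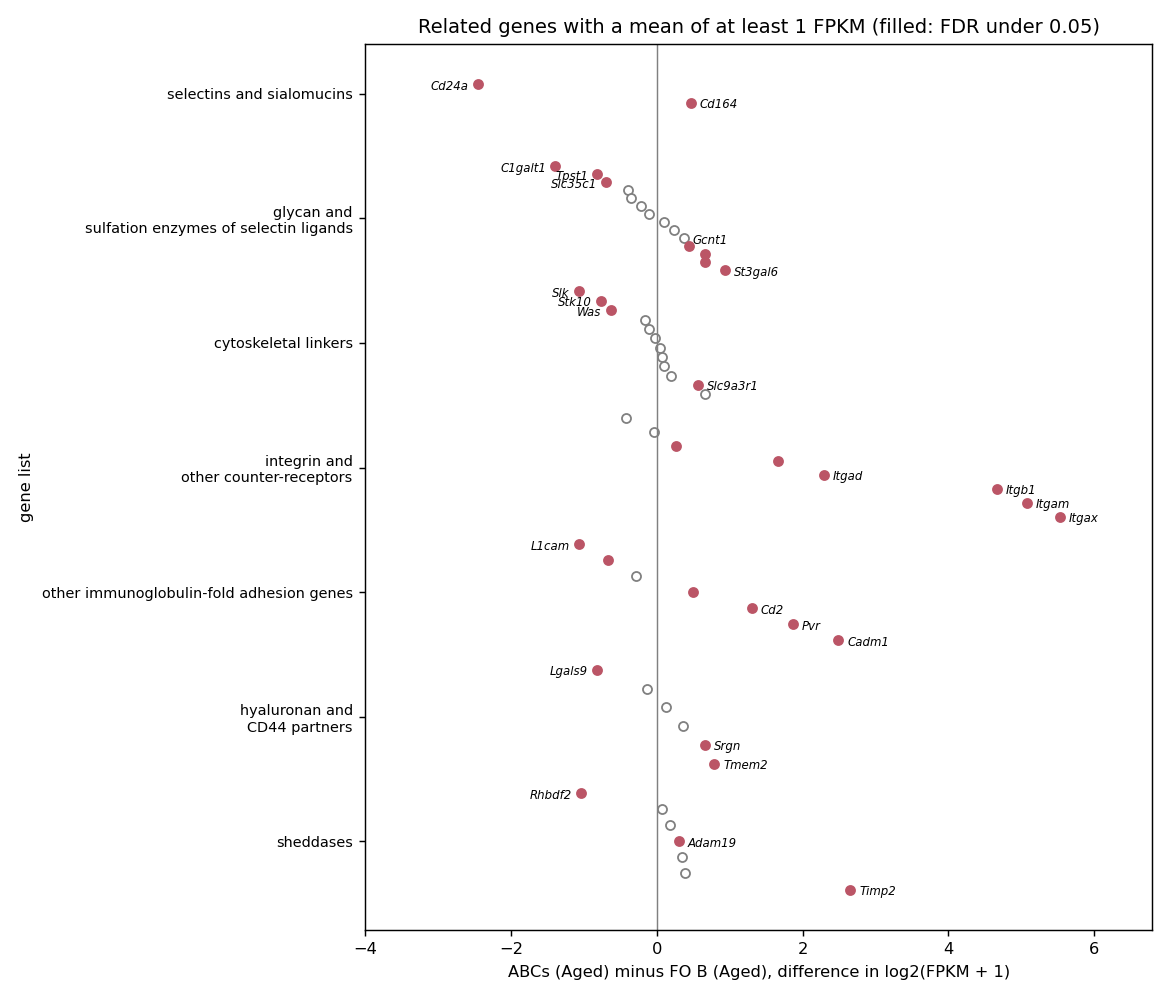
Differences in log2(FPKM + 1) between ABCs (Aged) and FO B (Aged) (horizontal axis) for the tested genes reported from 7 related lists (vertical axis, 1 row of points for each list), filled where the limma FDR was under 0.05. Itgb1, at 4.67, stood beside the sort markers Itgam and Itgax, while Cd24a, at -2.46, lay at the other end.

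Genes with the most similar course over the 9 libraries were found by the root mean square difference of mean-centred log2(FPKM + 1) among 10375 genes, as a description. For Spn they were Prf1 (0.17), 1700026L06Rik (0.21) and Sirpa (0.24). For Cd44 they were Cd72 (0.10), Gas7 and Itgae (0.11), for Selplg Hexa, Atp6v0e and Man1a2 (0.049 to 0.057), and for Icam1 Relt, Ctsc and Gm14295 (0.10 to 0.12). Gas7 had means of 0.0163 FPKM in FO B (Aged) and 3.69 FPKM in ABCs, and Itgae of 0.233 and 4.45 FPKM. Their fold differences were larger than that of Cd44, and they lay near it because this scale understates changes of low genes. Those of Icam2 were Gimap1 (0.040), Trim25 (0.042) and BC003965 (0.058), which were also lower in ABCs. The distance depends on how much a member differs between libraries, so it is not compared between members. For Alcam they were Aph1a, Cdc25a and Cpox (0.090 to 0.11), and for Vcam1 Acbd4, Zfp934 and Ccdc88b (0.18 to 0.19).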

How the data were processed

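RNA-seq values of 9 libraries of sorted splenic B cells were used, with groups and replicate numbers taken from the sample titles. The authors deposited 1 FPKM value per gene and library. cDNA was made with SMART-Seq HT and libraries with Nextera, and single-end reads of 101 bases were mapped to mm10. The submitters' processing notes name TopHat2 2.1.1, Bowtie2 2.2.8, SAMtools 0.1.18 and Cuffdiff 2.2.1, and the paper's methods give other versions of the mapping tools. The gene annotation and the scaling between libraries are not given in the sources used here, so that a scaling made before deposit could have moved all values of a library together.

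Values were put on the log2(FPKM + 1) scale and compared with lmFit and trended eBayes of limma 3.58.1 (R 4.3.3), using the 6 libraries of a comparison and genes whose mean there reached 1 FPKM. No block was used. P-values were adjusted over all genes tested by the Benjamini-Hochberg method (FDR), and genes were called at an FDR under 0.05. The fit was tested on simulated data. Between the FO B groups, mean FPKM of each member and ratios of members were also compared by exact permutation, two-sided. Other steps used Python 3.11.15, numpy 2.4.6, pandas 2.3.3, scipy 1.17.1 and matplotlib 3.10.9. Mapped reads were approximated from the value of 1 read in 497 genes with transcripts of at least 1000 bases, and FPKM was multiplied by depth and annotated length for approximate reads.

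The 7 members, the 7 lists of related genes and the 10 marker lists were chosen with earlier results of these data known. From each related list, up to 4 genes with the largest difference between ABCs (Aged) and FO B (Aged) at an FDR under 0.05 were named, with Sele, Selp, Gcnt1 and Fut7 whatever their values, any list gene called between the FO B groups, and the 3 genes most alike to each member. Of these lists, 2 genes are not reported here. Marker genes beside a member were picked as defining genes after their values were seen. Tpst2 and Itga4 were added beside Tpst1 and Itgb1, also after their values were seen. Results were recomputed with a pseudocount of 0.1 or 0.01, without the filter or with a minimum mean of 5 FPKM, with quantile, TPM and upper quartile scaling, no trend, all 9 libraries in 1 fit, the replicate number as a block, and each library left out in turn.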

Additional observations from a re-analysis of the deposited data

How the results depend on the processing

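Over the alternatives, the direction of each of the 7 genes in ABCs against either FO B group stayed the same. Scaling to the upper quartile gave 603 genes lower in ABCs than in FO B (Aged) and 927 lower than in FO B (Young), with 0 of the 7 genes lower at an FDR under 0.05 in each, and moved the share of higher genes among calls from 54.0% to 80.2% and from 53.0% to 66.4%. Between the FO B groups, the counts higher and lower were 13 and 2 with no filter, 13 and 5 with all 9 libraries, 24 and 27 with upper quartile scaling (a share of 47.1% higher against 74.5%), and 22 were higher with no trend. Upper quartile scaling, which moved the median of all genes there by -0.12, turned the age differences of Selplg to -0.069, Cd44 to -0.041 and Alcam to -0.071. That of Alcam ran from -0.158 to 0.132 with 1 library left out, and was below 0 when FO B (Young) replicate 1 (-0.056) or FO B (Aged) replicate 2 was omitted. With each library left out in turn, 1496 to 1963 genes were higher and 1054 to 1680 lower in ABCs than in FO B (Aged), 1745 to 2212 and 1312 to 1951 against FO B (Young), and 16 to 48 and 2 to 27 between the FO B groups, with 5 to 6 of the 7 genes higher and 1 lower in ABCs in both comparisons. Counts of lower genes were smallest with FO B (Aged) replicate 1 omitted (1054, and 1114 with replicate 3 omitted) and with FO B (Young) replicate 1 omitted (1312). Between the FO B groups, 19 were higher and 2 lower with FO B (Young) replicate 1 omitted, 20 and 3 with replicate 2 omitted, and 16 and 3, 48 and 21, and 40 and 27 with FO B (Aged) replicates 1, 2 and 3 omitted. Deviations from the group means of ABCs and FO B (Aged) libraries of the same number had correlations of 0.0845, -0.019 and 0.108 over 10375 genes. ABC replicates 1 and 3 correlated best with their own number, and ABC replicate 2 with FO B (Aged) replicate 1 (0.0589). Values this small cannot tell whether libraries of the same number came from the same mouse. With the replicate block, 1891 genes were higher and 1557 lower in ABCs than in FO B (Aged), 1947 and 1561 against FO B (Young), and 28 and 9 between the FO B groups. The cause of these shifts was not tested. Depth limits Vcam1 most, with approximately 11 to 21 reads per FO B (Aged) library.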
